A study of Mus musculus with 7 samples.

Results

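The axon guidance ligand and receptor families are described here in the cortex of mouse embryos as a set of 66 genes among the 23413 gene symbols in the count tables. The members were chosen by symbol alone: the semaphorins of classes 3 to 7, the plexins, the neuropilins Nrp1 and Nrp2, the EphA and EphB receptors, the ephrins, Slit1 to Slit3, Robo1 to Robo4, Unc5a to Unc5d, Dcc, Neo1, Ntn1 and Ntn4. By role the set holds 32 ligands and 34 receptors: 20 semaphorins, 9 plexins, 2 neuropilins, 8 EphA and 5 EphB receptors, 4 ephrin-A and 3 ephrin-B ligands, 3 Slits, 4 Robos, 2 netrins and 6 netrin receptors. Efna5 was not analysed here.

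Axon guidance cues are secreted or membrane-bound proteins that steer growth cones and migrating neurons by attraction or repulsion. Class 3 semaphorins are secreted and signal through neuropilins paired with plexins, whereas other semaphorins bind plexins directly. Ephrins are membrane-bound ligands of the Eph receptor tyrosine kinases and can themselves signal back into the cell that carries them. Slits signal through Robo receptors, and netrins through Dcc, Neo1 and the Unc5 receptors. In the developing cortex these pathways take part in radial migration, in the routing of callosal and subcerebral axons and in the placing of interneurons.

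Single-cell RNA profiles came from the cortices of 7 embryos of 1 litter, collected at E18.5 with Seq-Well, a microwell assay that counts unique molecular identifiers (UMIs) from the 3′ end of transcripts. In the 4 mutant embryos (replicates 10, 11, 12 and 17) both Ash1l alleles were floxed and Emx1CreERT2, a tamoxifen-dependent Cre driven from Emx1, was present. The 3 control embryos (replicates 14, 15 and 16) carried the floxed alleles without Cre. All 7 were exposed to tamoxifen, given to the dam at 100 mg/kg at E10.5. Emx1 is active in dorsal telencephalic progenitors, the source of glutamatergic cortical neurons and of radial glia, while GABAergic neurons arise mostly outside its domain. Ash1l encodes a histone H3 lysine 36 methyltransferase.

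The libraries held 7083225 to 11859209 UMIs, and 23005 barcodes with at least 500 detected genes and at most 10% mitochondrial UMIs were kept, 2114 to 4285 per embryo. Among these, 24 barcode sequences occurred in 2 or more libraries. The kept cells held 5316785 to 6726884 UMIs per embryo in the mutants and 7260191 to 9460628 in the controls, without overlap. A cell was placed in a class by its marker UMIs, with no member gene among the markers, and 11070 kept cells (48.1%) met no class rule. The classes used were glutamatergic neurons (6688 cells), within them upper-layer (2645), deep-layer (1650) and immature excitatory neurons (499), then radial glia (3099), intermediate progenitors (284), GABAergic neurons (1211), within them interneurons (565), and Cajal-Retzius cells (546). Of the markers that set the classes, Neurod6 stood at 689 CPM (UMIs per 1000000) in glutamatergic and 36.1 CPM in GABAergic neurons. Gad1 stood at 5.16 and 509 CPM, and Reln at 13260 CPM in Cajal-Retzius cells. Cells were placed by these same genes, so their separation is no independent check of the classes. Slc17a6 and Tbr1, on the glutamatergic list, stood at 73.2 and 143 CPM in glutamatergic neurons but at 298 and 204 CPM in Cajal-Retzius cells. Neurog1, on the intermediate progenitor list, was at 0 in every class. Ash1l itself, over all cells, stood at 156, 157, 170 and 121 CPM in the mutants (10, 11, 12, 17) and at 162, 217 and 206 CPM in the controls (14, 15, 16), a log2 fold change of −0.39 (adjusted p = 0.336) with overlapping groups. In glutamatergic neurons it stood at 138, 143, 156 and 113 CPM against 159, 200 and 201 CPM, without overlap (−0.44, adjusted p = 0.185). Reads from the 3′ end need not lie in the floxed part of the gene, so this level is no check of the deletion.

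Levels below are CPM, the UMIs of a gene per 1000000 UMIs summed over the cells of 1 class in 1 embryo. They compare 1 gene across classes or embryos and are not scaled for transcript length, so genes are not ranked against each other. Between 5 UMIs (Epha1) and 22607 UMIs (Nrp1) were counted per member over all kept cells. The 66 genes lie on 19 chromosomes in GENCODE M21 (GRCm38), among them Nrp2 at chr1:62703285-62818695 on the plus strand, and Ephb1 at chr9:101922128-102354693, Plxna4 at chr6:32144268-32588192 and Plxnb2 at chr15:89155549-89180788 on the minus strand, all protein-coding. A total of 58 members had at least 100 UMIs. The other 8, Epha1, Epha2, Plxnb3, Robo3, Robo4, Sema3b, Sema3d and Sema3g, were too sparse to place.

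The 58 members differed in the class where their median level was highest. Immature excitatory neurons held the highest median for 13 members, radial glia for 10, Cajal-Retzius cells, deep-layer and upper-layer neurons for 8 each, interneurons for 6 and intermediate progenitors for 5. For 11 of the 58 the lowest embryo in the leading class lay above the highest embryo in the next class. They were Ephb6, Plxnd1, Sema6a and Unc5b in Cajal-Retzius cells, Nrp1 and Sema3c in immature excitatory neurons, Ephb4 and Plxnc1 in radial glia, Ephb1 in deep-layer neurons, Plxna4 in upper-layer neurons and Epha5 in interneurons. For the remaining members the ranges of the 2 leading classes overlapped. These orders are a description with no test, and they cover only the classes named here. Oligodendrocyte precursors (23 cells), endothelial cells (25), microglia (40), meningeal cells (19) and striatal GABAergic cells (48) were also gated but not ranked. A leading class is therefore not shown to be the highest in the tissue. The same counts were not made over all genes, so they do not show whether the members are unusual. The intermediate progenitor sums rested on the fewest cells.

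**Figure D1:**
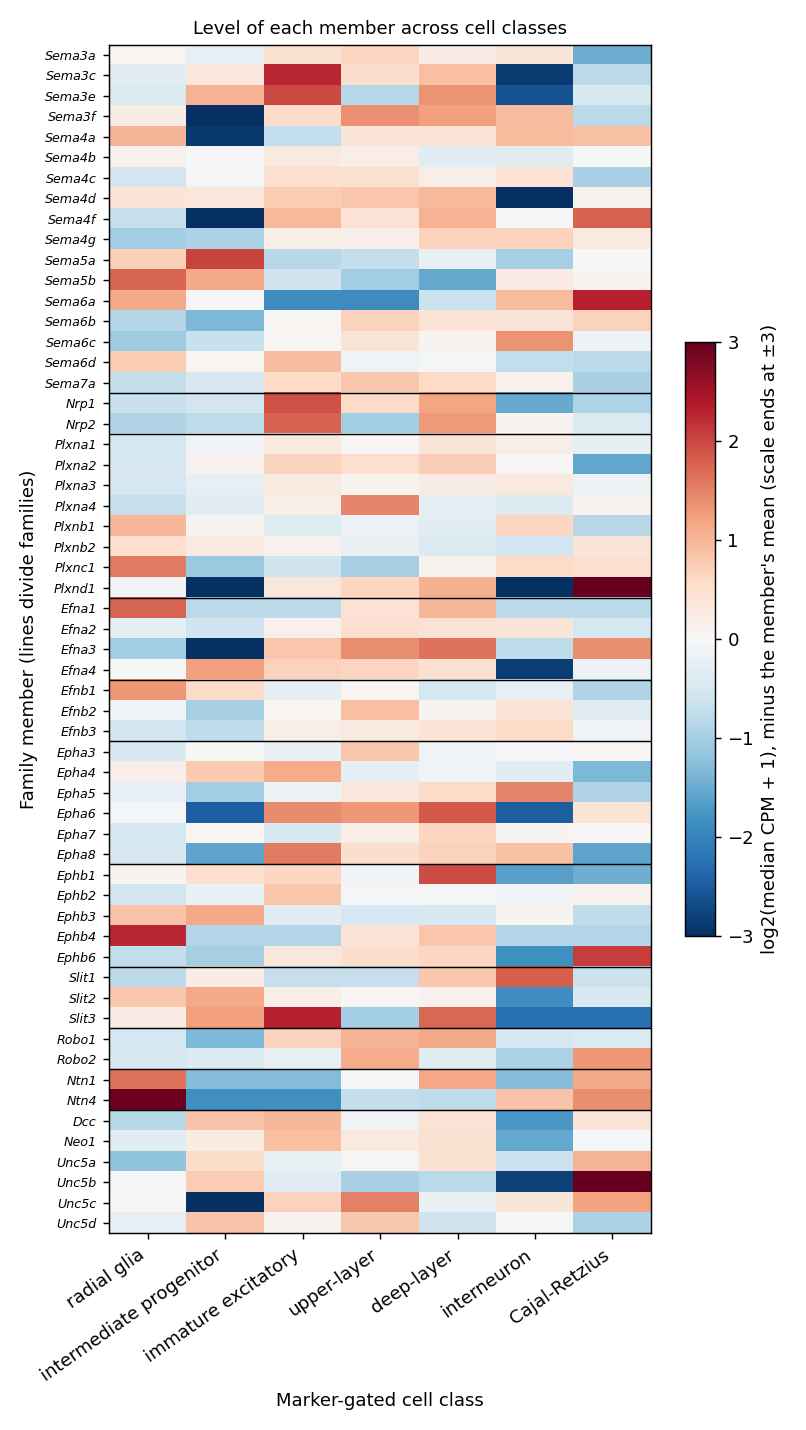
Level of the 58 members with at least 100 UMIs (rows, divided by family) in 7 marker-gated classes (columns), as log2(median CPM over 7 embryos + 1) minus the member's mean over the classes, with colours ending at 3 in either direction. Unc5b and Plxnd1 stand out in Cajal-Retzius cells, Ntn4 in radial glia, and Sema3c, Nrp1 and Nrp2 in immature excitatory neurons.

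Among the classes ranked, Cajal-Retzius cells, the early-born reelin-secreting neurons of the marginal zone, held the highest median of 3 receptors and 1 ligand with separate ranges. Plxnd1, the plexin that binds Sema3e, had a lowest, median and highest embryo of 96.8, 192 and 220 CPM there, against 14.7, 18.1 and 27.9 CPM in deep-layer neurons, the next class. Unc5b, a repulsive netrin receptor, had 82.4, 127 and 143 CPM there and at most 25.6 CPM in any embryo's intermediate progenitors, the next class. Both receptors were thus higher in every embryo's Cajal-Retzius cells than in any embryo's cells of the next class. Ephb6, an Eph receptor without kinase activity, reached 123, 174 and 229 CPM in Cajal-Retzius cells and 35.7, 63.6 and 74.4 CPM in deep-layer neurons. Sema6a, a transmembrane semaphorin, reached 118, 180 and 261 CPM there and 45.9, 77.9 and 97.4 CPM in radial glia. Robo2 was also high in Cajal-Retzius cells, with 454, 632 and 739 CPM, but overlapped with upper-layer neurons at 512, 556 and 655 CPM.

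Deep-layer and upper-layer neurons were compared within embryos to ask how the families are divided between neurons that project mainly below the cortex and neurons that project mainly within it. Of 47 members tested 25 differed at an adjusted p under 0.05, 16 higher in deep-layer and 9 higher in upper-layer neurons, where 23.7% of all genes tested were called, 12.9% higher in deep-layer and 10.8% in upper-layer neurons. The receptors accounted for 16 of the 25 calls among 25 tested, and the ligands for 9 among 22. The median log2 fold change, deep over upper, was 0.09 over the members and −0.01 over all genes tested. A member entered this fit only with enough counts in these classes, so the counts do not cover all 66.

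Nrp2, Ephb1, Slit1 and Sema6a had the largest changes on the deep-layer side. Nrp2, a co-receptor for class 3 semaphorins, had a lowest, median and highest embryo of 138, 198 and 289 CPM in deep-layer and 22.2, 38.6 and 56.3 CPM in upper-layer neurons. The 2 ranges did not overlap, and the log2 fold change was 2.32 ± 0.10 (SE, 7 embryos; edgeR adjusted p = 7.16e-26). Nrp1, its paralog, was higher by a log2 fold change of 0.55 ± 0.06 and its ligand Sema3c, a secreted semaphorin, by 0.64 ± 0.07. Ephb1, a receptor of the ephrin-B ligands, had 85.8, 120 and 175 CPM in deep-layer and 19.6, 28.2 and 47.3 CPM in upper-layer neurons (log2 fold change 2.05 ± 0.11). Slit1, a Robo ligand, had 42.9, 45.5 and 63.1 CPM against 4.71, 15.4 and 24.8 CPM (1.75 ± 0.18). Sema6a had 19.2, 22.1 and 48.9 CPM against 3.16, 8.75 and 12.6 CPM (1.70 ± 0.24). Each of these 3 had separate ranges and was higher in the deep-layer neurons of all 7 embryos. Plxnc1, the Sema7a receptor, Sema5a and Sema4f were also higher, with log2 fold changes of 0.94, 0.91 and 0.68, as were Plxnd1 (0.66), Plxna1 (0.50) and the netrin receptor Dcc (0.47). The calls of Plxnd1 and Sema4f were lost with DESeq2 and in the 3 control embryos alone. That of Plxnd1 was also lost without any 1 of mutants 10 and 17 and controls 14 and 15 (edgeR adjusted p up to 0.121). At a mitochondrial share of at most 5% it was lost as well (0.0899). That of Sema4f was also lost without control 15 (0.0548).

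The upper-layer side held netrin receptors of the Unc5 type, a plexin, a Robo and ephrin-B ligands. Unc5c had a lowest, median and highest embryo of 23.0, 31.6 and 51.9 CPM in upper-layer and 2.35, 8.92 and 16.1 CPM in deep-layer neurons, a log2 fold change, deep over upper, of −2.30 ± 0.25. Unc5d had 88.7, 110 and 191 CPM against 34.2, 41.1 and 73.4 CPM (−1.54 ± 0.11). These related receptors, which mediate repulsion from netrin and bind other ligands, were lower in deep-layer neurons of all 7 embryos with no overlap. Plxna4, a signalling partner of the neuropilins, had 416, 486 and 534 CPM against 107, 143 and 203 CPM (−1.75 ± 0.07). Robo2, a Slit receptor, had 512, 556 and 655 CPM against 154, 198 and 244 CPM (−1.48 ± 0.06). Epha3 had 119, 156 and 222 CPM against 49.6, 81.3 and 127 CPM (−1.03 ± 0.09). The ranges of Plxna4 and Robo2 were separate, and that of Epha3 overlapped between the classes. Efnb2, a transmembrane ephrin, had 318, 411 and 441 CPM against 175, 235 and 291 CPM (−0.79 ± 0.06). Sema3a (−0.57) and Efnb1 (−0.38) were also lower in deep-layer neurons, and both calls were lost with DESeq2 and without control 16 (edgeR adjusted p of 0.0642 and 0.0665). The call of Efnb1 was also lost without mutant 10 or mutant 11 and in the 3 control embryos alone.

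Members of 1 pathway were split between the layers. Slit1 was higher in deep-layer neurons while Robo2 was higher in upper-layer neurons, and Robo1 showed a log2 fold change of 0.10 (adjusted p = 0.264). Among netrin receptors Dcc was higher in deep-layer neurons and Unc5c and Unc5d in upper-layer neurons, while Neo1 showed 0.08 (adjusted p = 0.433). Among the semaphorin receptors both neuropilins and Plxna2 (0.26 ± 0.05) were higher in deep-layer neurons and Plxna4 in upper-layer neurons. Among Eph receptors, Ephb1, Epha4 (0.19), Epha5 (0.30) and Epha7 (0.34) were higher in deep-layer neurons and Epha3 in upper-layer neurons.

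**Figure D2:**
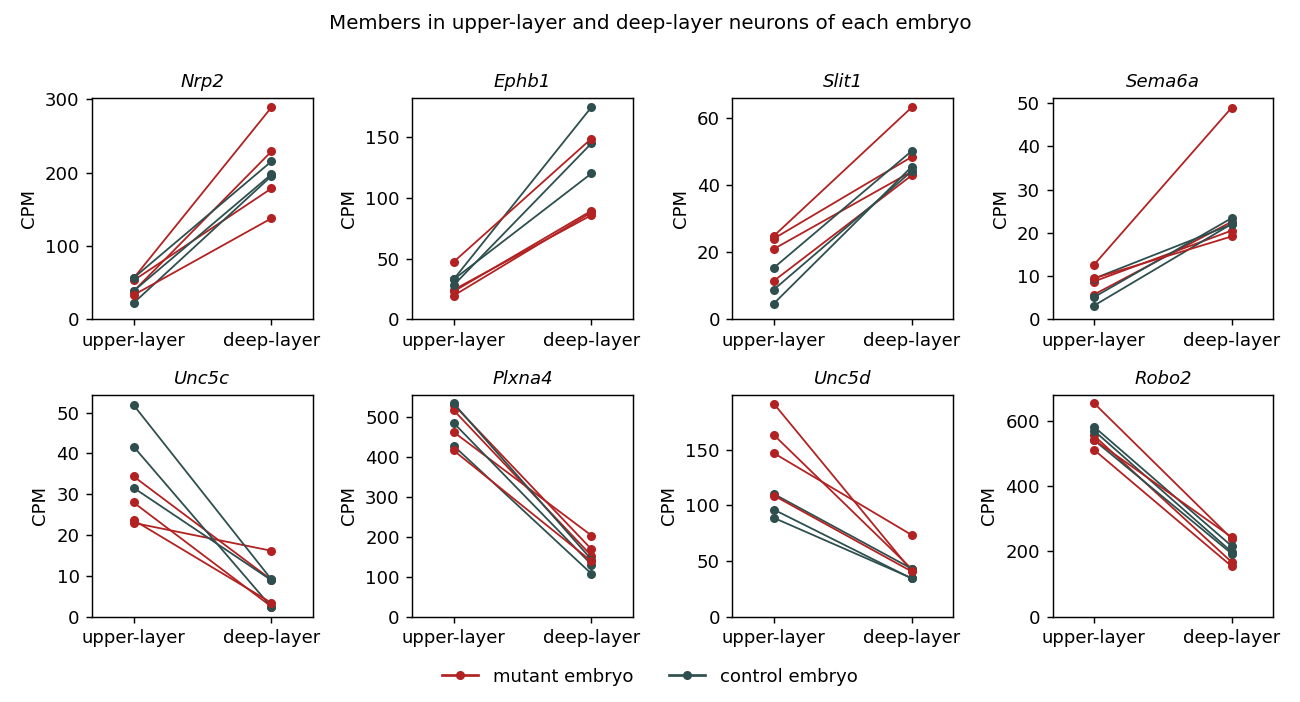
CPM of 8 members in upper-layer and deep-layer neurons, with 1 line per embryo (red, 4 mutants; dark, 3 controls). The upper row shows members higher in deep-layer neurons and the lower row members higher in upper-layer neurons, and every line runs in the direction of its row.

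The promoters of 4 members on opposite sides of this comparison are shown so that their letters can be read beside the values. They are the 2 members in each direction with the largest fold change among those with 1 RefSeq start whose 250 bases before the start overlap no annotated exon. The windows are from RefSeq on GRCm38.p6, which had an entry for 56 of the 66 members, and are written 5′ to 3′ on the minus strand that each gene is read from. They are chr10:94944846-94945095 for Plxnc1 and chr6:82939770-82940019 for Sema4f, both higher in deep-layer neurons, and chr16:63864176-63864425 for Epha3 and chr8:8661243-8661492 for Efnb2, both higher in upper-layer neurons. Capitals mark every match, on either strand, to 4 motifs: an E-box, CAGATG, a T-box site, GGTGTG, a GC box, GGGCGG, and a CCAAT box, CCAAT.
Plxnc1: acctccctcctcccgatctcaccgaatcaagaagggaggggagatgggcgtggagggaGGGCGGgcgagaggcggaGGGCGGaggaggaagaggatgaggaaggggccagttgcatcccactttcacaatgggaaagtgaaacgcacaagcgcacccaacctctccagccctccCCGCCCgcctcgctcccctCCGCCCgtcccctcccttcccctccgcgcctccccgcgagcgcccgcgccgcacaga
Sema4f: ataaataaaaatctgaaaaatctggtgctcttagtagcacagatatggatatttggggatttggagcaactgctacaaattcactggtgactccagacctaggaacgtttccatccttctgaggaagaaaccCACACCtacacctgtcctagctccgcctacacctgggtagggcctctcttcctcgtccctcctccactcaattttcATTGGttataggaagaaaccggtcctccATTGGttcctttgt
Epha3: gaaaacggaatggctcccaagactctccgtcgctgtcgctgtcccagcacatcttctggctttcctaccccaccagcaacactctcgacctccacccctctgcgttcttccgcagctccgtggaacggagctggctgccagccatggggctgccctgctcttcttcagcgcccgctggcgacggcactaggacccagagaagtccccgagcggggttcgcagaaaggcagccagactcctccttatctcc
Efnb2: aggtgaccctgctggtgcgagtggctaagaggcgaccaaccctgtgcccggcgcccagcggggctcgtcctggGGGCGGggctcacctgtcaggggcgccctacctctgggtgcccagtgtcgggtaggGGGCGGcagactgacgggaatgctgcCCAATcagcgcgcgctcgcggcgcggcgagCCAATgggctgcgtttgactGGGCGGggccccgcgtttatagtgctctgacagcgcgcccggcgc
Plxnc1 held 4 GC boxes and none of the other motifs, and Sema4f held 1 T-box site and 2 CCAAT boxes. Efnb2 held 3 GC boxes and 2 CCAAT boxes, and Epha3 held no match to the 4 motifs. The E-box was absent from all 4 windows. Over the 32851 windows of this length in the table, 14.4% held the E-box, 16.3% the T-box site, 32.7% the GC box and 33.9% the CCAAT box. The 72 windows of members held these in 6.94%, 22.2%, 70.8% and 27.8%. The GC content of the 4 windows was 68.8%, 46.0%, 62.8% and 72.0% in the order printed, against a median of 52.4% over all windows. These matches are letters in a window and were not tied to binding or to the levels.

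Immature excitatory neurons, the glutamatergic class marked by Neurod1, Nhlh1, Sstr2 and Tiam2, were set against upper-layer neurons. Neurod1 and Tiam2 stood at 371.9 and 738.5 CPM there and at 194.4 and 72.9 CPM in intermediate progenitors. Nhlh1 and Sstr2 were lower there, at 11.85 and 119.1 CPM against 20.57 and 136.5 CPM in intermediate progenitors. Cells were not ordered by maturation. Of 38 members tested 18 were called, 9 in each direction, where 8.77% of all genes tested were called, 5.04% higher in immature and 3.74% in upper-layer neurons. The receptors gave 15 of the 18 calls among 23 tested. Sema3c and both neuropilins were among the members higher in the immature cells. Nrp2 had a lowest, median and highest embryo of 181, 278 and 314 CPM there, against the upper-layer values given above (log2 fold change 2.74 ± 0.14). Sema3c had 499, 615 and 879 CPM against 114, 183 and 272 CPM (1.84 ± 0.08). Nrp1 had 904, 1170 and 1290 CPM against 370, 462 and 659 CPM (1.27 ± 0.07). A ligand and both of its neuropilin receptors were thus higher in the immature neurons of all 7 embryos with separate ranges. Epha4, a receptor for both ephrin classes, had 590, 649 and 866 CPM against 206, 243 and 266 CPM (1.497 ± 0.08). Dcc (1.05 ± 0.15), Sema6d (0.91), Ephb1 (0.86), Ephb2 (0.85) and Neo1 (0.60) were also higher. The call of Ephb1 was lost with DESeq2 and without control 15 or control 16 (edgeR adjusted p up to 0.0856). It was also lost at a mitochondrial share of at most 5% (edgeR adjusted p = 0.202).

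The upper-layer side of this comparison held 9 members, most of them receptors. Robo2 had 177, 217 and 293 CPM in immature neurons, below its upper-layer range, with a log2 fold change, immature over upper-layer, of −1.26 ± 0.09. Plxna4 had 169, 199 and 303 CPM, also below its upper-layer range (−1.11 ± 0.09). Unc5c (−1.10), Epha3 (−0.92), Unc5d (−0.84), Efnb2 (−0.83), Epha7 (−0.78) and Robo1 (−0.48) were lower as well. The 2 comparisons share the upper-layer neurons, so a member found in both is not found independently. The call of Unc5c was lost with DESeq2, without control 14 and at 3 marker UMIs. That of Epha7 was lost with DESeq2, at a mitochondrial share of at most 5% (edgeR adjusted p = 0.06045) and in the 3 control embryos alone. That of Unc5d was lost in the 3 control embryos alone.

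Glutamatergic and GABAergic neurons differed in 32 of 48 members tested, 24 higher in glutamatergic and 8 higher in GABAergic neurons, where 31.7% of all genes tested were called, 16.1% higher in glutamatergic and 15.6% in GABAergic neurons. The receptors gave 19 calls among 25 tested, 16 of them higher in glutamatergic neurons. All 4 netrin receptors called (Dcc, Neo1, Unc5a, Unc5d), all 3 EphB receptors tested, both Robos tested and both neuropilins were higher in glutamatergic neurons. Sema3c had a lowest, median and highest embryo of 226, 250 and 402 CPM in glutamatergic and 11.2, 27.7 and 55.2 CPM in GABAergic neurons (log2 fold change 3.14 ± 0.14). Nrp1 had 549, 610 and 806 CPM against 97.8, 112 and 166 CPM (2.48 ± 0.09). The ligand and its receptor had separate ranges. Neo1, a netrin and repulsive guidance molecule receptor, had 225, 328 and 343 CPM against 84.2, 89.7 and 134 CPM (1.68 ± 0.10). Sema4d (2.41), Ephb1 (1.91), Epha6 (1.88), Ephb6 (1.70) and Plxnd1 (1.63) followed. The call of Epha6 was lost in the 3 control embryos alone (edgeR adjusted p = 0.08075). Epha6 and Plxnd1 each had a median of 0 CPM in interneurons.

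The GABAergic side held Sema6a, Slit1, Plxnc1, Sema5b, Plxnb1, Epha5, Sema6c and Sema4a. Sema6a had 44.4, 61.5 and 106 CPM in GABAergic and 11.8, 14.5 and 20.2 CPM in glutamatergic neurons (log2 fold change, glutamatergic over GABAergic, −2.09 ± 0.21). Slit1 had 46.4, 92.1 and 117 CPM against 19.4, 25.8 and 40.3 CPM (−1.68 ± 0.17). Both had separate ranges. Epha5 had 252, 372 and 498 CPM against 188, 214 and 269 CPM (−0.77 ± 0.08), and in the interneurons among the GABAergic cells 376, 454 and 590 CPM. Plxnc1 (−1.07), Sema5b (−1.04), Plxnb1 (−0.80) and Sema6c (−0.72) were higher in the GABAergic neurons of all 7 embryos. The call of Sema4a (−0.85, adjusted p = 0.042) was lost under 8 of 14 alternatives, among them DESeq2 and leaving out mutant 10, 11 or 17 or control 14 or 15 (edgeR adjusted p up to 0.123).

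Radial glia, the neural stem cells of the cortex, differed from glutamatergic neurons in 49 of 52 members tested, 38 higher in neurons and 11 in radial glia, where 64.8% of all genes tested were called, 32.4% higher in neurons and 32.3% in radial glia. Ntn4, a secreted netrin relative found in basement membranes, had 21.3, 26.7 and 55.2 CPM in radial glia and 0.29, 1.12 and 2.51 CPM in glutamatergic neurons (log2 fold change, neurons over radial glia, −4.62 ± 0.28). Sema5b had 77.3, 96.3 and 120 CPM against 8.96, 13.4 and 20.2 CPM (−2.80 ± 0.12). Plxnc1 had 67.2, 107 and 147 CPM against 19.1, 25.6 and 39.4 CPM (−1.89 ± 0.11), and Efnb1 had 87.4, 131 and 141 CPM against 38.0, 48.7 and 64.0 CPM (−1.22 ± 0.10). All 4 had separate ranges. Sema6a (−2.27), Ephb3 (−1.18), Plxnb1 (−1.05) and Sema5a (−0.997) were also higher in radial glia. Plxnb1 and Plxnb2 (−0.67 ± 0.08), receptors of class 4 semaphorins, were both on this side. On the neuronal side Nrp2 (1.80), Efna3 (1.77), Nrp1 (1.72), Sema4f (1.70), Robo1 (1.66), Plxna4 (1.65), Epha6 (1.59) and Sema7a (1.56) had the largest changes. Robo1 had 252, 314 and 327 CPM in neurons and 75.2, 102 and 132 CPM in radial glia, with no overlap.

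Genes that carry these signals inside the cell or assist the receptors were followed as a list of 60, of which 57 were measured. In deep-layer against upper-layer neurons 22 of 53 tested were called, 19 of them higher in deep-layer neurons, where 23.7% of all genes tested were called and 12.9% were higher in deep-layer neurons. Islr2 (log2 fold change 2.03), Rgma (1.58), a membrane ligand of Neo1, the collapsin response mediator Dpysl4 (1.27) and the adhesion molecules Nrcam (1.08) and Chl1 (1.07) led it. Ntng2 (−0.85), Cntn2 (−0.54) and Fyn (−0.30) were higher in upper-layer neurons. In immature excitatory against upper-layer neurons 10 were higher and 4 lower of 50 tested (8.77% of all genes called, 5.04% higher and 3.74% lower), with Islr2 (2.12) and Nrcam (−1.17) at the ends. In glutamatergic against GABAergic neurons 22 were higher and 15 lower of 54 tested (31.7% of all genes called, 16.1% higher and 15.6% lower), with Ablim1 (3.01), Cntn2 (2.89) and Rnd3 (−2.29) at the ends. Against radial glia 39 were higher and 7 lower in neurons of 55 tested (64.8% of all genes called, 32.4% higher and 32.3% lower).

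The mutant and control embryos were then compared within each class to ask whether the families differ by genotype. All mutants and no controls carried Emx1CreERT2, so loss of Ash1l and the presence of Cre cannot be told apart. With edgeR, 0 members were called in all cells (59 tested), glutamatergic neurons (53), upper-layer neurons (47), deep-layer neurons (47), immature excitatory neurons (29), GABAergic neurons (29) or radial glia (44). In the same order, 0.0233%, 0.112%, 0.168%, 0.011%, 0%, 0.0157% and 0% of all genes tested were called. An unadjusted p under 0.05 was found for 10, 14, 10, 4, 2, 3 and 0 members, where 1350 of 12893 genes had one in all cells and 12.4%, 11.9%, 7.72%, 6.30%, 6.44% and 5.18% of all genes tested in the other 6. With DESeq2, Plxnb2 was called in glutamatergic and in upper-layer neurons and no member in the other 5. The list of 60 pathway genes had 0 calls in all 7 with edgeR, and 8, 7, 12, 7, 2, 5 and 3 of its genes had an unadjusted p under 0.05. With DESeq2, Ablim1, an actin-binding protein, was called in glutamatergic and upper-layer neurons (edgeR log2 fold change −0.67 and −0.66). The smallest p values belonged to Plxnb2, Unc5d and Sema3c in upper-layer neurons and to Plxnb2 and Ephb6 in glutamatergic neurons. The values that follow did not pass the edgeR test unless stated.

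Plxnb2, a receptor for class 4 semaphorins, had the smallest p. In glutamatergic neurons it stood at 150, 109, 179 and 134 CPM in mutants 10, 11, 12 and 17 and at 103, 89.6 and 76.9 CPM in controls 14, 15 and 16. The 4 mutants all lay above the 3 controls. The log2 fold change was 0.67 ± 0.15 with an adjusted p of 0.121 (edgeR) and 0.0168 (DESeq2), and over the 13 alternatives the adjusted p ran from 0.00104 to 0.572. In upper-layer neurons the mutants stood at 168, 115, 178 and 121 CPM and the controls at 105, 87.9 and 71.9 CPM, again without overlap (0.71 ± 0.17, adjusted p = 0.0861, with DESeq2 0.0492, range over alternatives 0.00624 to 0.412). The fold change was 0.63 in deep-layer neurons (adjusted p = 0.380), 0.68 in GABAergic neurons (0.687) and 0.27 in radial glia (0.929). Without mutant 17 the adjusted p was 0.0462 in glutamatergic and 0.0457 in upper-layer neurons, and without control 14 it was 0.0303 in upper-layer neurons.

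Unc5d differed in sign between neuron types. In upper-layer neurons it stood at 191, 163, 147 and 109 CPM in mutants 10, 11, 12 and 17 and at 96.2, 88.7 and 110 CPM in the controls, with mutant 17 inside the control range (0.62 ± 0.16, adjusted p = 0.115). In glutamatergic neurons the values were 115, 118, 108 and 69.3 CPM against 68.9, 66.0 and 83.6 CPM (0.48 ± 0.16, adjusted p = 0.247). Without mutant 17 the adjusted p was 0.0294 in upper-layer and 0.0279 in glutamatergic neurons, in ranges over 13 alternatives of 0.0294 to 0.427 and 0.0279 to 0.702. In GABAergic neurons it stood at 57.9, 56.0, 37.4 and 55.7 CPM in the mutants and at 73.4, 83.1 and 79.6 CPM in the controls, all mutants below all controls (−0.62 ± 0.29, adjusted p = 0.745). The difference of the genotype effects, glutamatergic minus GABAergic, was 1.18 ± 0.29 on the log2 scale (adjusted p = 0.124, range over 13 alternatives 0.067 to 1), and it did not pass the test over all genes. Of 52 members tested for this difference 0 were called, with edgeR as with DESeq2, and 4 had an unadjusted p under 0.05, where 0.049% and 5.47% of all genes were. Unc5c, its relative, stood at 23.0, 34.4, 28.0 and 23.7 CPM in the mutants' upper-layer neurons and at 51.9, 31.6 and 41.7 CPM in the controls', with mutant 11 inside the control range (−0.66 ± 0.23, adjusted p = 0.244). In the test of the difference the second smallest p was that of Plxnd1 (−2.94 ± 1.23, adjusted p = 0.867).

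Sema3c stood at 194, 272, 197 and 183 CPM in the upper-layer neurons of the mutants and at 149, 114 and 161 CPM in those of the controls, without overlap (0.56 ± 0.15, adjusted p = 0.125). In glutamatergic neurons it stood at 318, 402, 338 and 237 CPM against 250, 226 and 234 CPM (0.44 ± 0.14, adjusted p = 0.228, and 0.0297 without mutant 17 in a range of 0.0297 to 0.680). Its receptor Nrp1 showed 0.27 in glutamatergic and 0.38 in upper-layer neurons (adjusted p = 0.369 and 0.266). Markers of immature excitatory neurons had a summed level in the glutamatergic class of 472, 440, 475 and 392 CPM in mutants 10, 11, 12 and 17. The controls stood at 371, 350 and 370 CPM, and 3 of the 4 markers were higher on average in the mutants. In the upper-layer class the sums were 441, 312, 372 and 330 CPM in the mutants and 338, 282 and 284 CPM in the controls. The sums of mutants and controls thus overlapped in the upper-layer class and did not overlap in the glutamatergic class. The radial glia list in the glutamatergic class ranged from 247 to 301 CPM in mutants and from 258 to 319 CPM in controls. The part of these markers in the values of Sema3c, Nrp1, Plxnb2 and Unc5d was not tested.

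Among Eph receptors, Ephb6 stood at 68.7, 64.0, 62.9 and 74.4 CPM in the mutants' glutamatergic neurons and at 57.3, 42.0 and 41.0 CPM in the controls' (0.53 ± 0.15, adjusted p = 0.189). In upper-layer neurons it stood at 64.5, 75.9, 61.5 and 59.2 CPM against 47.4, 51.2 and 38.3 CPM, again with all mutants above all controls (0.50 ± 0.18, adjusted p = 0.260). Epha7, which binds ephrin-A ligands, stood at 58.3, 57.1, 42.7 and 62.2 CPM against 73.6, 69.2 and 77.4 CPM (−0.41 ± 0.14, adjusted p = 0.256). Epha6, another EphA receptor, stood at 19.3, 19.99, 16.9 and 18.49 CPM against 14.0, 12.2 and 10.9 CPM (0.59 ± 0.21, adjusted p = 0.276). None of these overlapped between genotypes in glutamatergic neurons. In GABAergic neurons Epha7 stood at 23.7, 78.4, 37.4 and 33.5 CPM against 95.1, 61.5 and 96.2 CPM, with mutant 11 inside the control range (−1.06 ± 0.33, adjusted p = 0.531). The summed interneuron markers of the GABAergic class also varied, from 822 to 1780 CPM in mutants and from 1271 to 1473 CPM in controls, and their part was not tested. Ephb1 in deep-layer neurons stood at 89.4, 85.8, 88.1 and 149 CPM in the mutants and at 120, 145 and 175 CPM in the controls, where mutant 17 alone reached the control range (−0.44 ± 0.18, adjusted p = 0.555). Plxna4 in deep-layer neurons stood at 152, 203, 169 and 139 CPM against 143, 130 and 107 CPM, with mutant 17 inside the control range (0.38 ± 0.16, adjusted p = 0.553).

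Among ligands, Sema5b in glutamatergic neurons stood at 16.0, 15.4, 20.2 and 13.4 CPM in the mutants and at 11.1, 8.96 and 10.1 CPM in the controls, without overlap (0.68 ± 0.23, adjusted p = 0.256). Slit1 in upper-layer neurons stood at 24.1, 11.5, 21.0 and 24.8 CPM against 8.86, 15.4 and 4.71 CPM, with mutant 11 inside the control range (1.13 ± 0.37, adjusted p = 0.204). In radial glia Slit1 stood at 16.4, 14.6, 21.3 and 25.8 CPM against 12.6, 12.9 and 12.4 CPM, all mutants above all controls (0.64 ± 0.32, adjusted p = 0.920). The 4 ephrin-A ligands measured in all cells had log2 fold changes from −0.49 (Efna1) to −0.39 (Efna2), with Efna3 at −0.47 (adjusted p = 0.339) and Efna4 at −0.43 (adjusted p = 0.467). Of these, Efna3 stood at 19.0, 16.9, 17.7 and 18.7 CPM in the mutants and at 27.4, 20.6 and 26.1 CPM in the controls, without overlap. In sums over all cells, fewer cells of a type and less RNA per cell cannot be told apart. Glutamatergic neurons were 27.1% ± 1.17 (SD, n = 4) of kept cells in mutants and 32.4% ± 3.98 (SD, n = 3) in controls (exact permutation test, two-sided, p = 0.0286, the smallest these 35 splits allow, and 0.129 adjusted over 9 classes). In glutamatergic neurons alone Efna3 showed −0.41 (adjusted p = 0.365). In radial glia no member had an unadjusted p under 0.05, and the smallest belonged to Plxnc1 (−0.42 ± 0.20, adjusted p = 0.920).

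The signs over all members were as follows. In glutamatergic neurons the median log2 fold change, mutant over control, was 0.11 for the 53 members and 0.00 for all genes tested, with 37 members above 0 and 16 below. In deep-layer neurons it was 0.18 over 47 members, with 35 above 0, and in radial glia 0.05 over 44, with 24 above 0. Among all genes tested 50.1%, 49.9% and 51.0% lay above 0 in these classes. Groups did not overlap for 5 members higher and 1 lower in glutamatergic neurons, where 4.79% and 5.85% of all genes did not overlap in these directions. Of the 17 semaphorins tested there 15 lay above 0, with a median of 0.16, and Sema3c, Sema4b and Sema5b had an unadjusted p under 0.05.

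**Figure D3:**
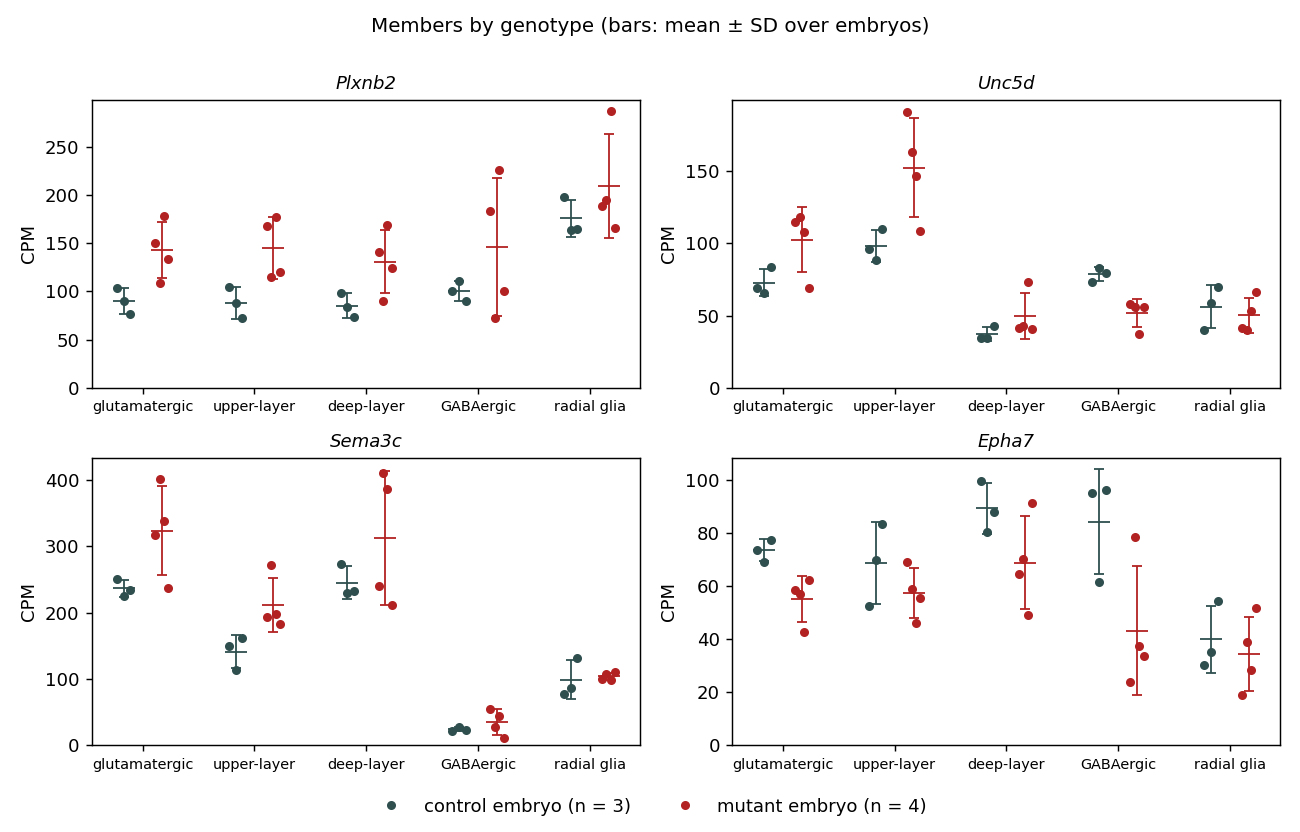
CPM of Plxnb2, Unc5d, Sema3c and Epha7 in 5 classes, with 1 point per embryo (dark, 3 controls; red, 4 mutants) and bars for the mean and SD over embryos. Unc5d lies higher in most mutants' upper-layer neurons and lower in all mutants' GABAergic neurons.

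**Figure D4:**
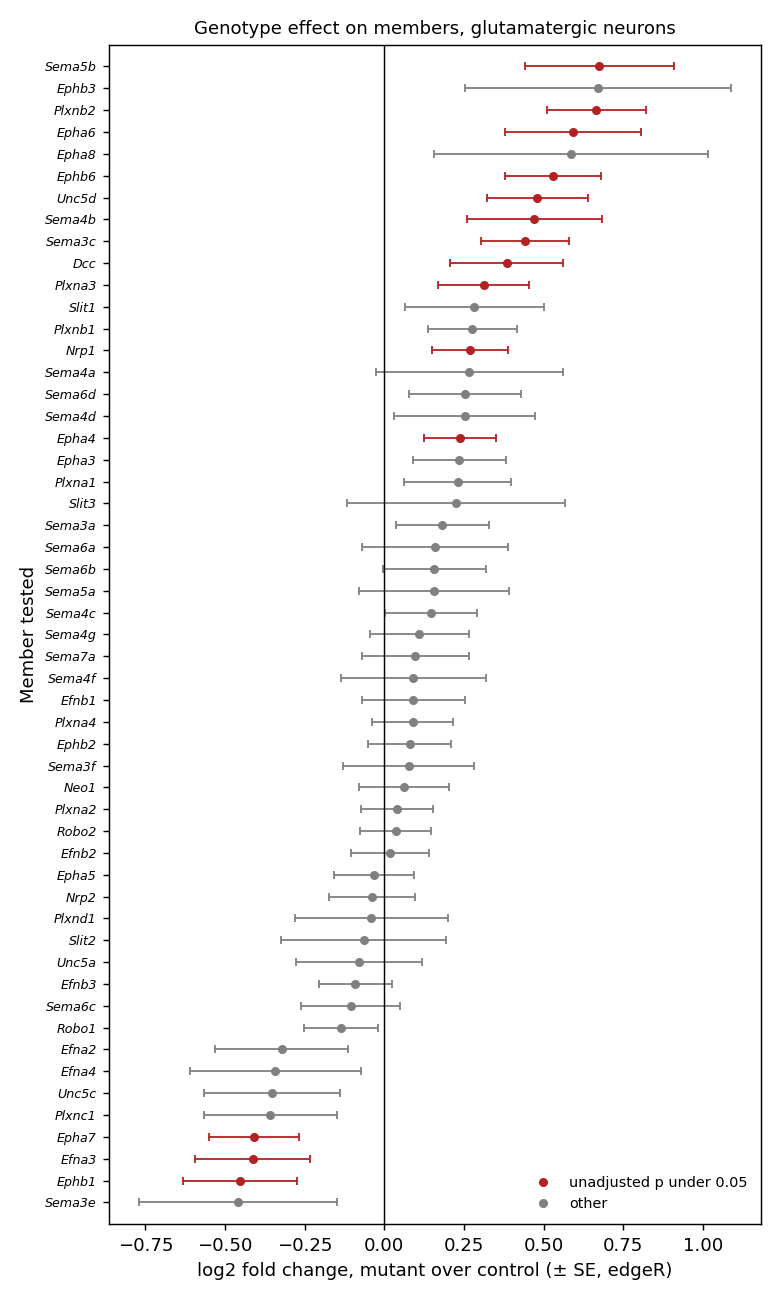
log2 fold change (mutant over control, edgeR) with its SE for the 53 members tested in glutamatergic neurons, ordered by size. The 14 members in red had an unadjusted p under 0.05, and none passed after adjustment over all genes.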

How the data were processed

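The authors deposited 1 table of UMI counts per gene and bead barcode for each of the 7 embryos, made with STAR and mm10 per the submitters' processing notes. For the STAR version, the annotation and the UMI collapsing, these sources give nothing. Cells with at least 500 genes and at most 10% mitochondrial UMIs were kept. A cell was given the class with the most marker UMIs if it had at least 2 and more than 2 times those of the next class, and within a class the subclass with more than each other. Counts were summed per class and embryo (at least 20 cells) and tested with the quasi-likelihood test of edgeR 4.0.16 in R 4.3.3 over all genes that passed its filter on low counts, with Benjamini-Hochberg adjustment and a threshold of 0.05. Genotype was tested within each class. Classes were tested with the embryo as a block, because both classes come from the same animal, and same-embryo deviations correlated at 0.119 to 0.463. The difference of genotype effects was an interaction term. SE is the absolute log2 fold change divided by the square root of F. DESeq2 1.42.0 was an alternative.

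The members and lists were chosen with earlier results of these data known. Members named by genotype are the up to 6 with the smallest p per class, since none passed. For class comparisons they are up to 8 called members with the largest change in each direction and their partner ligands or receptors, and Efna1 to Efna4, Epha6 and Sema4b were named after their values were seen. P-values measure the spread between embryos of 1 litter. Only the fits of genotype in glutamatergic neurons and of deep-layer against upper-layer neurons were also run on simulated counts, and the outcome is not given. The changes simulated were larger than the genotype effect on Plxnb2, so detection of effects of that size was not checked. RefSeq promoters (GRCm38.p6) were matched by symbol.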

Additional observations from a re-analysis of the deposited data

Results flagged for a closer look

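In 4 of 30 sets of 4 mutant values examined, 1 embryo lay far from the other 3 by Dixon's 95% criterion, which chance alone meets in about 1 set in 20. In upper-layer neurons Sema3c was highest in mutant 11, at 272.1 CPM, with the other 3 mutants between 183 and 197 CPM. In deep-layer neurons Ephb1 was highest in mutant 17, at 148.8 CPM, with the others between 85.8 and 89.4 CPM, and this was the mutant that reached the control range. In GABAergic neurons Unc5d was lowest in mutant 12, at 37.38 CPM, with the others between 55.7 and 57.9 CPM. In radial glia Ephb6 was lowest in mutant 10, at 18.79 CPM, with the others between 31.5 and 33.7 CPM.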

How the results depend on the processing

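The settings tried were DESeq2, its size factors within edgeR, no filter on low counts, 300 genes per cell, a mitochondrial share of at most 5%, 3 marker UMIs, and leaving out each embryo. Members called by genotype, 0 as reported, were 1 in glutamatergic and 1 in upper-layer neurons with DESeq2 (Plxnb2). Without the filter they were 2 in all cells, 1 in glutamatergic neurons, 2 in upper-layer neurons and 1 in radial glia, and at a mitochondrial share of at most 5% they were 1 in upper-layer neurons. Leaving out 1 embryo gave 0 to 4 in glutamatergic and 0 to 2 in upper-layer neurons, the highest counts without mutant 17. The cause was not tested, and 0 directions reversed. The class comparisons kept each embryo as a block, since both classes come from the same animal. With no replicate block the calls were 28 in place of 32 (glutamatergic against GABAergic), 18 in place of 25 (deep-layer against upper-layer), 17 in place of 18 (immature against upper-layer) and 48 in place of 49 (against radial glia). The share of all genes called under these other settings is not given, so the counts do not show a change particular to the members. No paired analysis was possible because the mutant and control embryos share no replicate number. Leaving out embryos from the class shares, chosen after seeing the data, gave a mutant minus control difference of −6.92 to −3.07 percentage points for glutamatergic neurons.

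Limits: all embryos came from 1 litter, and no smaller p than 0.0286 is possible for a share with 4 against 3. Every mutant had fewer kept UMIs than every control, and the part of this depth in the genotype values and class shares was not tested. The marker rule left 48.1% of kept cells in no class. Just 2 marker UMIs were held by 22.3% of upper-layer, 24.3% of deep-layer and 36.7% of immature excitatory cells and by 29.0% of interneurons. No doublet caller was run, and free RNA was not removed, so low levels in a class need not be expression there. Intermediate progenitors had the fewest cells of the classes used (284).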
